A study of Mus musculus with 6 samples.

Results

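The genes described here belong to families whose enzymes add methyl or acetyl groups to histones or take them off. Some members act mainly on other proteins or as transcription factors. The 9 families, named by symbol, include the lysine demethylases (Kdm) and the KMT2, SET-domain (Setd), PR-domain (Prdm) and Ehmt methyltransferase families. The others are the arginine methyltransferases (Prmt), the acetyltransferases (Kat), the classical histone deacetylases (Hdac) and the sirtuins (Sirt). A locus was a member where a symbol of its name began with one of these family names followed by a digit, or with Kmt2, and the rule left out Kdm2b, Kdm5d and Prdm14. It took 72 of the 23244 loci: 15 Kdm, 13 Prdm, 11 Hdac, 9 Setd, 8 Prmt, 7 Kat, 7 Sirt and 2 Ehmt. No locus carries a Kmt2 symbol, and 5 genes of that family are described below under their older symbols. The rule uses names alone and no measured value, but it was set with earlier results of these data known.

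The libraries came from embryonic stem (ES) cells of the mouse, self-renewing cells taken from the early embryo. The control cells (3 libraries) were from an inducible Cre-loxP line whose Zscan10, a SCAN-domain zinc-finger gene, was floxed but not deleted. The null cells (3 libraries) were a subclone that had lost Zscan10. Expression was measured by sequencing total RNA freed of ribosomal RNA, as FPKM, a level that is corrected for transcript length and sequencing depth; a value after ± is the SD of 3 libraries. Separate cultures are not named in the labels, so the spread behind the p-values may be only technical: they measure how far these samples differ among themselves. The null cells being 1 subclone, and the control titles alone bearing the mark -Tx, the effects of genotype, clone and any treatment cannot be told apart. In such bulk samples, fewer cells of a type and less RNA per cell cannot be told apart either.

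Histone tails carry acetyl groups on lysines, which go with open, transcribed chromatin, and methyl groups on lysines and arginines, whose association with active or silent genes depends on the residue. Acetyltransferases and methyltransferases place these marks, and deacetylases and demethylases remove them. Most of the enzymes act inside large complexes, and many also modify proteins other than histones. ES cells express many of them at high levels, and the balance of writers and erasers is known to bear on how ES cells keep or leave their state.

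Zscan10 (chromosome 17, 23600826 to 23611019 in mm10) was at 44.2, 43.0 and 41.9 FPKM in the control and at 5.49, 4.43 and 5.47 FPKM in the null libraries, 11.9% of the control mean (limma adjusted p = 2.88e-06). An exact two-sided permutation test of these 6 values gave p = 0.1, the smallest that 3 against 3 libraries allow. Depth read from the steps between low values was 0.986 to 1.093 times that of control replicate 1, itself at about 7540000 fragments, so that 1 FPKM of a 3-kb transcript stood for about 22.6 fragments. ES cell markers were high in every library: 8 of them, among them Pou5f1, Nanog and Sox2, summed to 4156.3 to 4248.8 FPKM in the control and 3870.4 to 4178.4 FPKM in null libraries. Markers of fibroblast feeder cells (8 genes) summed to 7.07 to 8.89 and 4.24 to 6.05 FPKM, and 3 of the 8 had a mean below 0.1. They did not move together: Acta2 fell from 3.93 to 1.73 FPKM (limma adjusted p = 0.0331) and Thy1 rose from 1.65 to 2.98 (0.0215). Col1a1 and Col1a2, too low to be tested, had control means of 0.738 and 1.13 FPKM. Their null means were 0.0861 and 0.0776, with no overlap, while Col3a1 overlapped.

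Most of these enzymes were expressed, and their levels differed little between the groups. Of the 72 members 62 had a mean of at least 1 FPKM over the 6 libraries, the minimum for the test, 43 had at least 10 FPKM, and, the Prmt2 locus aside, 6 had at least 100: Hdac1, Hdac2, Prmt1, Kdm1a, Kdm3a and Kdm5b. The 10 below the minimum included 7 of the 13 Prdm genes. Their highest values in any library were 1.16 FPKM for Prdm16, 0.661 for Prdm11, 0.259 for Prdm9, 0.202 for Prdm13, 0.113 for Prdm8, 0.106 for Prdm12 and 0.0915 for Prdm6. The other 3 were Hdac7 (highest value 0.889 FPKM), Hdac9 (0.563) and Kdm4d (0.39). No test was made of these 10 genes.

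**Figure D1:**
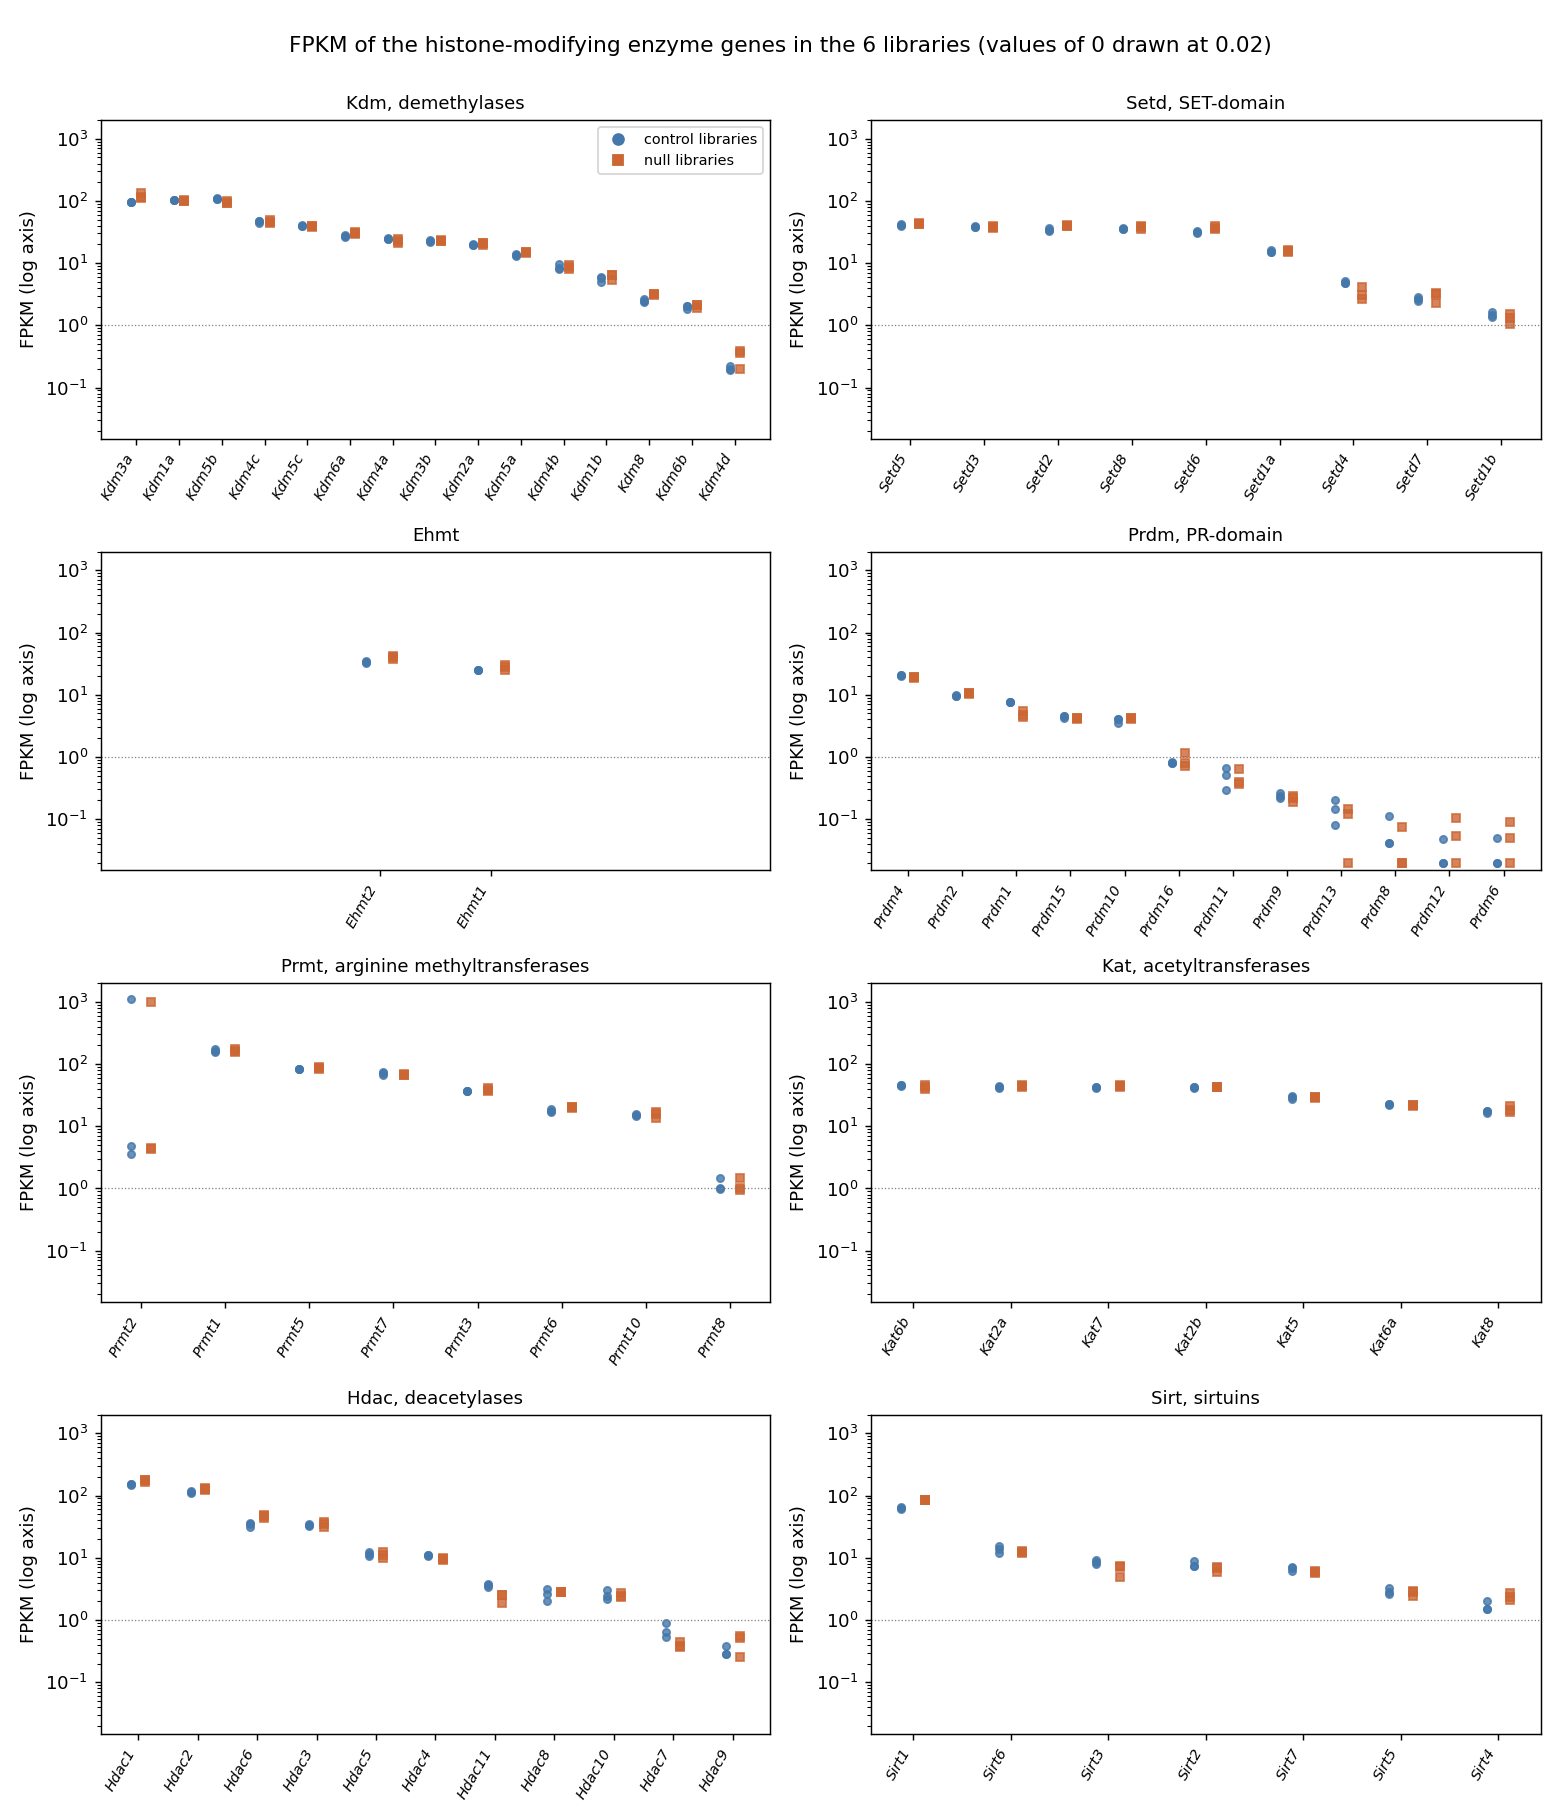
FPKM of the members in each library, 1 Prdm gene left out, on a log axis, by family; circles are the 3 control and squares the 3 null libraries, values of 0 are drawn at 0.02, and the dotted line marks 1 FPKM. Within most genes the 6 points lie close together, apart from the Prmt2 locus, where 1 library of each group stands far above the others, and 7 Prdm genes lie near or below the 1 FPKM line.

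By limma on log2(FPKM + 1), with the Benjamini-Hochberg adjustment over all loci and a threshold of 0.05, 14 of the 62 tested members (22.6%) changed. Of all 11480 loci tested 25.2% did, so the share among the enzymes lay near the background. Sirt1, Hdac6, Kdm3a, Kdm8, Ehmt2, Setd2, Setd6, Hdac1 and Hdac2 were the 9 that were higher in null libraries. Prdm1, Setd4, Hdac11, Kdm5b and Hdac4 were the 5 that were lower. The background was 12.8% for higher and 12.4% for lower loci. With the libraries centred on their medians the split was 12 higher and 4 lower, and 25.5% of all loci passed.

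The differences were small. Without the Prmt2 locus, described below, 52 of the 61 tested members lay within 0.25 of 0 on the log2(FPKM + 1) scale. Prdm1 alone passed 0.5, and 0 members passed 1. Of all 11480 tested loci 141 passed 1, a share so small that 0 of 61 does not set the members apart. The shares of all loci within 0.25 of 0 or past 0.5 were not counted. The median difference was 0.02 for the 62 members and -0.00 for all tested loci, and the median absolute difference was 0.09 against 0.14. Of the 47 members that did not pass, the Prmt2 locus aside, 45 had a 95% interval within 0.5 of 0 on this scale, which understates the change of genes with low FPKM. In 30 of the 62 members (48.4%) the groups did not overlap, with the null libraries higher in 17 and lower in 13. The same held for 44.1% of all tested loci, with 21.6% higher and 22.5% lower.

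**Figure D2:**
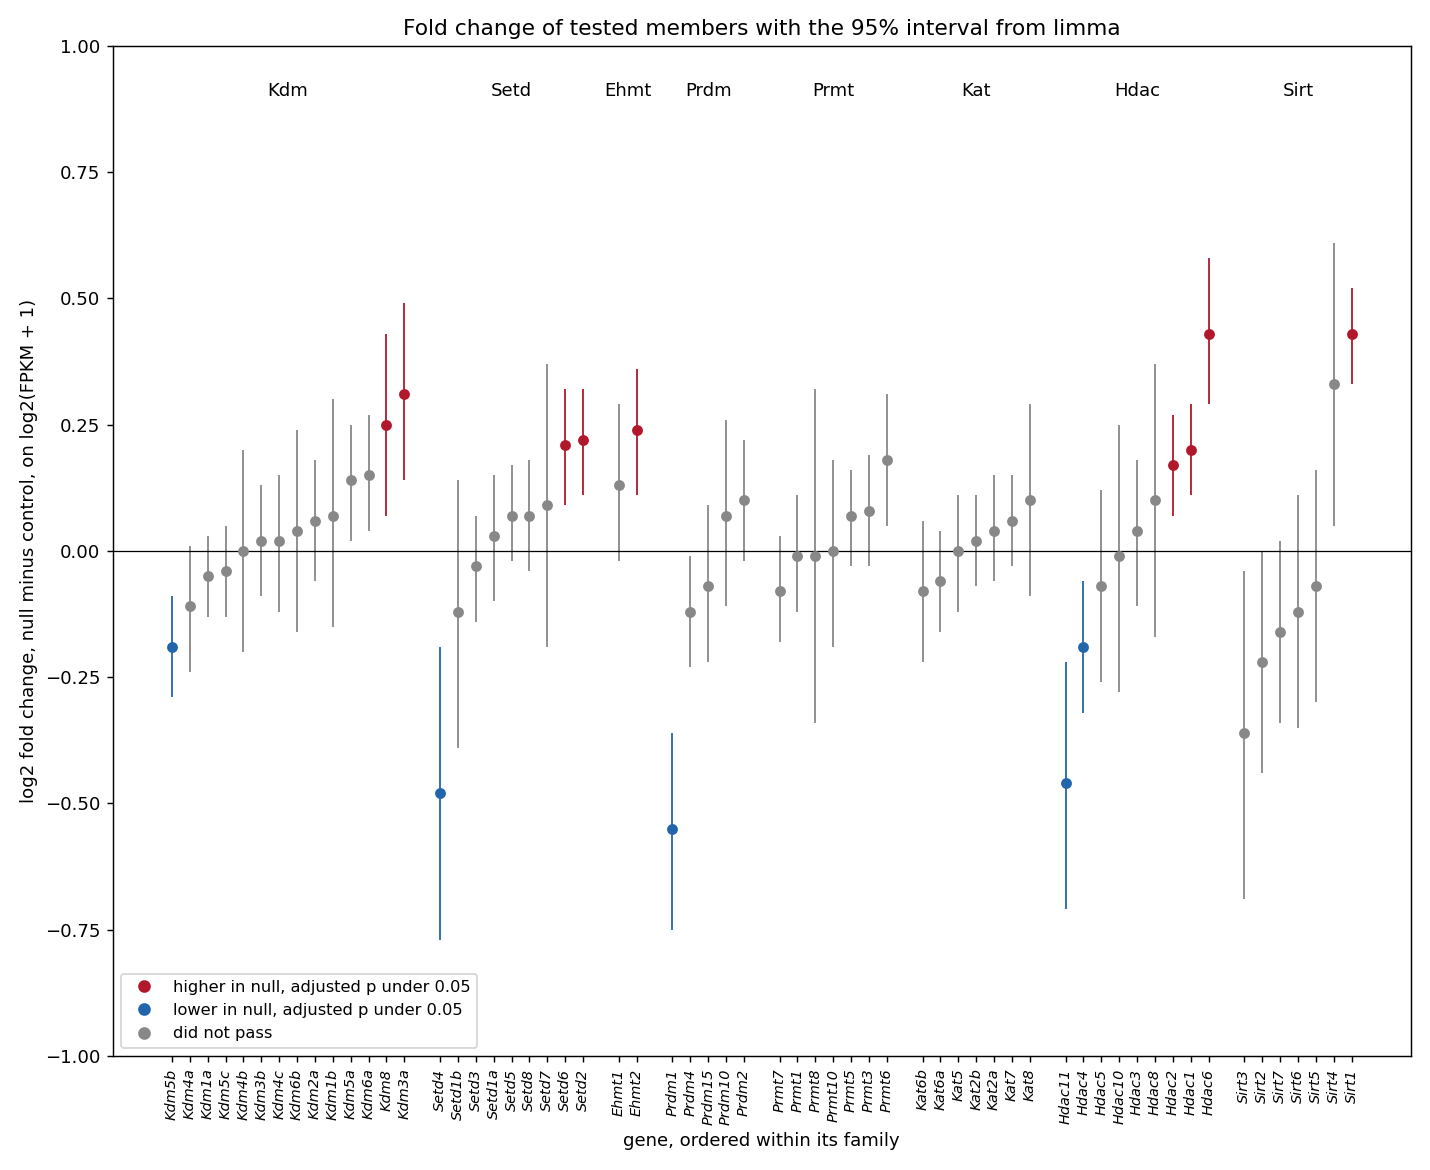
Difference between null and control means on the log2(FPKM + 1) scale for the tested members other than the Prmt2 locus and 1 Prdm gene, by family, with the 95% interval from limma; red marks the 9 higher and blue the 5 lower members at an adjusted p under 0.05. The points run from -0.55 for Prdm1 to 0.43 for Sirt1 and Hdac6, and all Prmt and Kat genes are grey.

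Few of the 14 calls held in every fit tried. Sirt1, Hdac6, Hdac1 and Prdm1 kept theirs in every alternative and with any 1 library left out, and the other 10 each lost theirs in at least 1 of these fits. The number of changed members was 5 without control replicate 1, 6 without control replicate 2, 6 without control replicate 3, 13 without null replicate 1, 9 without null replicate 2 and 7 without null replicate 3. In the same fits 15.0% to 25.4% of all loci passed. None of the 14 changed direction in any fit.

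The promoters of Sirt1, Hdac6, Prdm1 and Setd4 are shown because these genes had the largest rises and falls among the calls on the log2(FPKM + 1) scale; by the ratio of means, Hdac11 fell slightly more than Setd4. RefSeq promoters on GRCm38.p6, which is mm10, run from 250 bases before to 50 bases after a start site, and all 4 genes lie on the minus strand. Capitals mark the E-box CACGTG and the GC-box GGGCGG, searched on both strands (a GC-box on the other strand reads CCGCCC). GC-boxes that share bases were counted separately.
Sirt1, chr10:63338986-63339285: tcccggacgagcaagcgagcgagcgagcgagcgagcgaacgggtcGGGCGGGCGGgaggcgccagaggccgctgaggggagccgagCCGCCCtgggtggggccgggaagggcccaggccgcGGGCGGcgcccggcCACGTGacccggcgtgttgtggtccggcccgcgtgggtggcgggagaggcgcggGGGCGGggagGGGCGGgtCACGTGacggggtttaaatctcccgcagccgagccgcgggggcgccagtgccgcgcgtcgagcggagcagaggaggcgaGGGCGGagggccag
Hdac6, chrX:7947840-7948139: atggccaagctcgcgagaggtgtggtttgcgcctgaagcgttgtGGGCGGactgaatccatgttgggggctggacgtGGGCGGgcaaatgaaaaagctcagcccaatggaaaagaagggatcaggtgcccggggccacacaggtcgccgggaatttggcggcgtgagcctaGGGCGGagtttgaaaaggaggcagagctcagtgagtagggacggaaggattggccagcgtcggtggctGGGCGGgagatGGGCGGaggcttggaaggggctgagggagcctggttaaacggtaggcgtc
Prdm1, chr10:44458699-44458998: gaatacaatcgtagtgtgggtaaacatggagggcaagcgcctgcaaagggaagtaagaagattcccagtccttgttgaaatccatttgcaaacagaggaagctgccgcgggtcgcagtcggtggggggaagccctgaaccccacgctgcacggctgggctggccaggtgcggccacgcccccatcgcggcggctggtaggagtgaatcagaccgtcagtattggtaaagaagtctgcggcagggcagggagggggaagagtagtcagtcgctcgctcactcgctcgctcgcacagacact
Setd4, chr16:93603766-93604065: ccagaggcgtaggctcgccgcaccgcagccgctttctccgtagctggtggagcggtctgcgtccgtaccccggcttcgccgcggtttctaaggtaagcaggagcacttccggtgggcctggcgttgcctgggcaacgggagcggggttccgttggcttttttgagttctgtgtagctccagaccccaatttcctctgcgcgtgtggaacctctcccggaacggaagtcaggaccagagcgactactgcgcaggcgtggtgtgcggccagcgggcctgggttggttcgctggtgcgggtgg

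The Sirt1 promoter held 2 E-boxes, 7 GC-boxes and 47 CpG dinucleotides, and that of Hdac6 held 5 GC-boxes, no E-box and 20 CpG. Neither motif occurred in the windows of Prdm1 (20 CpG) or Setd4 (29 CpG). The start sites shown for Hdac6, Prdm1 and Setd4 lie inside the span of the RefSeq gene. For comparison, 10.5% of the 11674 promoters of tested loci held CACGTG and 64.1% held GGGCGG, with a median of 21 CpG. Among the 81 promoters found for 59 of the 72 members, 12.3% held CACGTG and 59.3% GGGCGG, with a median of 20 CpG. The 11 promoters of 8 genes that rose included 3 with CACGTG, that of Sirt1 and both of Ehmt2, and 10 with GGGCGG. Of the 5 promoters of the 5 genes that fell, 0 held CACGTG and 3 held GGGCGG. These matches describe the letters of each window and not the binding of a factor.

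Among the classical deacetylases, the zinc-dependent enzymes that remove acetyl groups, Hdac6, Hdac1 and Hdac2 rose and Hdac11 and Hdac4 fell, 5 of 9 tested members (55.6%, against 25.2% of all tested loci). Hdac6 (chromosome X, 7930116 to 7948047), a mainly cytoplasmic deacetylase that acts on tubulin, was at 35.0, 36.0 and 31.4 FPKM in the control and 48.3, 46.8 and 44.0 FPKM in null libraries. Every null library lay above every control library. The mean rose 1.36-fold, from 34.1 ± 2.43 to 46.4 ± 2.22 FPKM (log2 difference 0.43, SE 0.06, limma adjusted p = 0.00344).

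Hdac1 and Hdac2 are the paired catalytic subunits of the NuRD, Sin3 and CoREST complexes and had the highest levels of the family. Hdac1 (chromosome 4, 129516104 to 129542646) was at 149, 155 and 152 FPKM in the control and 179.8, 177 and 168 in null libraries. Its groups did not overlap, and the difference was 0.20 (SE 0.04, limma adjusted p = 0.0088), or 1.15-fold. Hdac2 (chromosome 10, 36974297 to 37001889) was at 109, 113 and 118 FPKM in the control and 124, 126 and 133 in null libraries, again with no overlap. It rose 1.13-fold (0.17, SE 0.04, limma adjusted p = 0.0299). The Hdac2 call was lost without control replicate 1 or 2 or null replicate 2 or 3 (adjusted p = 0.0625 to 0.0989), with quantile normalization (0.105) and without the variance trend (0.0667).

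Hdac11 (chromosome 6, 91156670 to 91174692), the class IV deacetylase, was at 3.35, 3.80 and 3.63 FPKM in the control and 1.91, 2.54 and 2.57 FPKM in null libraries. The groups were apart, with control libraries 1.54 times as high in the mean (log2 difference -0.46, SE 0.10, limma adjusted p = 0.0178). The call was lost without control replicate 2 (0.065) or 3 (0.0555). Hdac4 (chromosome 1, 91928779 to 92195702), a class IIa enzyme that shuttles between nucleus and cytoplasm, was at 10.7, 11 and 11.2 FPKM in the control and 9.51, 9.90 and 9.13 in null libraries (-0.19, SE 0.06, limma adjusted p = 0.0459). Its groups did not overlap either, but the call was lost without any 1 of the 6 libraries (0.0588 to 0.128) and in 5 other alternatives (0.0519 to 0.0895). Antisense transcripts overlap 15.43% of the exonic bases of Hdac11 and 22.36% of those of Hdac4, and whether counting used strand is not stated in the sources at hand.

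The other deacetylases did not pass. Hdac3, the catalytic subunit of the NCoR complex, was at 33.9 FPKM in the control and 34.8 in the null libraries (limma adjusted p = 0.712). Hdac5 was at 11.7 and 11.1 FPKM, Hdac8 at 2.59 and 2.82, and Hdac10 at 2.57 and 2.52. The intervals of these 4 genes spanned -0.28 to 0.37. Hdac7, below the minimum for the test, had a mean of 0.685 FPKM in the control and 0.40 in null libraries with no overlap.

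**Figure D3:**
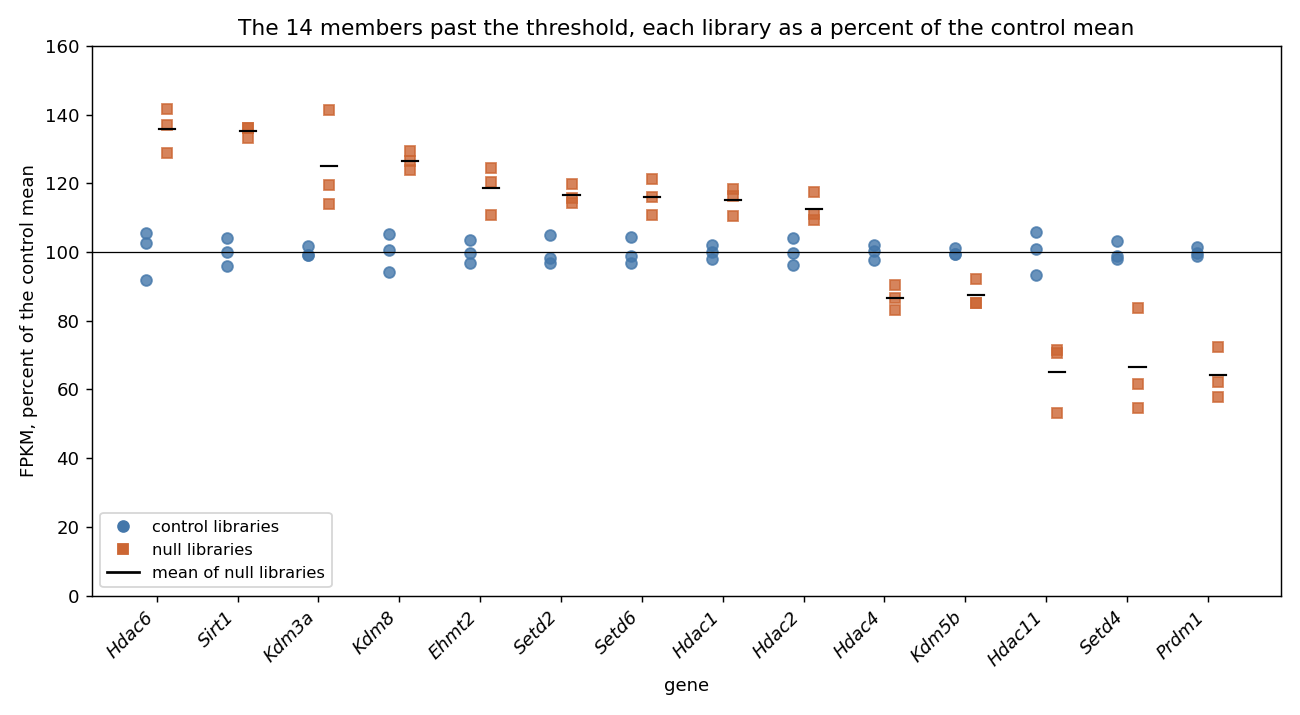
FPKM of the 14 changed members in each library as a percent of that gene's control mean; circles are control and squares null libraries, and the short bars are null means. No null library overlaps the control libraries of its gene, and in Setd4, Hdac11 and Kdm3a 1 null library stands apart from the other 2.

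The sirtuins are NAD-dependent deacetylases and related deacylases. Sirt1 (chromosome 10, 63319005 to 63339035), the nuclear member that deacetylates histones and p53, was at 60.9, 63.5 and 66.0 FPKM in the control and 86.3, 86.4 and 84.6 FPKM in null libraries. The groups lay far apart relative to their spread. The mean rose 1.35-fold, from 63.5 ± 2.55 to 85.8 ± 1.01 FPKM (0.43, SE 0.04, limma adjusted p = 0.000831, the smallest among the members).

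The other 6 sirtuins did not pass, and their intervals, spanning -0.69 to 0.61, were wide. The mitochondrial deacetylase Sirt3 was at 8.58, 9.19 and 7.93 FPKM in the control and 4.93, 7.49 and 7.13 in the null libraries (limma adjusted p = 0.0936). Sirt2, mainly cytoplasmic, was at 8.78, 7.45 and 7.43 FPKM and at 5.88, 7.19 and 6.88 (0.131). In both genes the null libraries lay below the control libraries, narrowly for Sirt2. Sirt4, a mitochondrial sirtuin of low level, was at 1.51, 2.04 and 1.52 FPKM in the control and at 2.08, 2.77 and 2.32 in null libraries (0.0837), with the groups just apart. Sirt6, Sirt7 and Sirt5 overlapped, at means of 13.8, 6.71 and 2.93 FPKM in the control and 12.5, 5.90 and 2.74 in null libraries. Antisense transcripts of Ric8a and Psmd13 overlap 7.0% and 5.73% of the exonic bases of Sirt3.

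The lysine demethylases comprise the FAD-dependent Kdm1 enzymes and the JmjC-domain enzymes. Of 14 tested, Kdm3a and Kdm8 rose and Kdm5b fell (21.4%, against 25.2% of all tested loci). Kdm3a (chromosome 6, 71588970 to 71632990), which removes mono- and dimethyl marks from H3 lysine 9, was at 95.2, 95.4 and 97.8 FPKM in the control and 109.7, 136 and 115 FPKM in null libraries. The groups did not overlap, and null replicate 2 stood above the other null libraries. The mean rose from 96.1 ± 1.42 to 120.1 ± 13.7 FPKM. This rise (log2 difference 0.31, SE 0.07, limma adjusted p = 0.0219) was no longer called without control replicate 1, 2 or 3 (0.054 to 0.0684).

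Kdm5b (chromosome 1, 134560178 to 134632878), a demethylase of H3 lysine 4, was at 108, 108 and 110.1 FPKM in the control and at 100.1, 92.6 and 92.6 FPKM in null libraries. All null libraries were lower, and the mean ratio of null to control was 0.876 (-0.19, SE 0.04, limma adjusted p = 0.016). Leaving out control replicate 1, 2 or 3 or null replicate 3 ended the call (0.0504 to 0.0526). Its paralogs did not pass: Kdm5a was at 13.6 ± 0.443 FPKM in the control and 15.0 ± 0.293 in the null libraries (limma adjusted p = 0.0813), and Kdm5c at 40.0 ± 0.399 and 38.8 ± 0.934 (0.438).

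Kdm8 (chromosome 7, 125444620 to 125463651), a JmjC-domain protein of low level here, was at 2.35, 2.51 and 2.63 FPKM in the control and 3.09, 3.23 and 3.16 in null libraries. Its groups were apart (0.25, SE 0.08, limma adjusted p = 0.0491), but this borderline call was lost without any 1 library (0.0726 to 0.141) and in 6 other alternatives (0.0507 to 0.0946).

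The other 11 Kdm genes had differences of -0.11 to 0.15, with intervals spanning -0.24 to 0.30. Kdm1a (LSD1), the H3 lysine 4 demethylase of the CoREST complex, was at 104 FPKM in the control and 101 in the null libraries (limma adjusted p = 0.299, and 0.0356 with quantile normalization), and its paralog Kdm1b at 5.67 and 6.02. The H3 lysine 27 demethylase Kdm6a (UTX) was at 26.6, 28.2 and 27.0 FPKM in the control and 29.5, 30.0 and 31.9 in null libraries, just outside the threshold (0.0531). It passed without null replicate 1 (0.0486), with median centring (0.0366) and with a minimum mean of 5 FPKM (0.0469). Kdm6b was at 1.97 and 2.06 in the mean. The Kdm4 enzymes, which act on H3 lysine 9 and lysine 36, were at 24.8 and 22.9 FPKM (Kdm4a, 0.167), 8.71 and 8.70 (Kdm4b) and 46.0 and 46.5 (Kdm4c). Kdm3b, the paralog of Kdm3a, was at 22.6 and 22.9 FPKM (0.765), and Kdm2a at 19.6 and 20.5.

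Among the lysine methyltransferases, the SET-domain genes Setd2 and Setd6 rose and Setd4 fell, 3 of 9 (33.3%, against 25.2% of all tested loci). Setd2 (chromosome 9, 110532500 to 110618633), which places the trimethyl mark on H3 lysine 36 along transcribed genes, was at 33.9, 33.4 and 36.2 FPKM in the control and 39.9, 39.4 and 41.3 FPKM in null libraries. The groups were apart, and the rise was 1.17-fold (0.22, SE 0.05, limma adjusted p = 0.0148). It was not called without control replicate 1 or 2 (0.056 and 0.057). Setd6 (chromosome 8, 95715634 to 95721507), which methylates the RelA subunit of NF-kB, was at 31.7, 33.5 and 31.1 FPKM in the control and 35.6, 38.9 and 37.2 in null libraries, with no overlap. It rose 1.16-fold (0.21, SE 0.05, limma adjusted p = 0.0233), a call lost without control replicate 1 or 3 or null replicate 2 or 3 (0.0612 to 0.0756).

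Setd4 (chromosome 16, 93583457 to 93604791) was at 4.88, 5.10 and 4.83 FPKM in the control and 2.70, 4.13 and 3.04 FPKM in null libraries. All null libraries were lower, and they spread more than the control libraries, with null replicate 2 nearest to the control. The mean was 1.5 times as high in the control (log2 difference -0.48, SE 0.12, limma adjusted p = 0.0275). The call was lost without control replicate 1, 2 or 3, without null replicate 1 or 3 (0.055 to 0.0854), and without a minimum FPKM (0.0536).

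The other Setd genes had intervals spanning -0.39 to 0.37. Setd5, the most abundant Setd gene, was at 39.7, 40.4 and 42.3 FPKM in the control and 43.9, 42.5 and 42.5 in the null libraries (limma adjusted p = 0.225). The catalytic subunits of the SET1 complexes, which methylate H3 lysine 4, were at 15.6 and 15.9 FPKM (Setd1a) and at 1.49 and 1.29 (Setd1b). The Setd1a value is uncertain, since a same-strand transcript overlaps 51.85% of its exonic bases. Setd3, an actin histidine methyltransferase, was at 38.9 and 38.0 FPKM, Setd8 (Kmt5a in RefSeq), which monomethylates H4 lysine 20, at 35.9 and 37.8, and Setd7 at 2.70 and 2.95.

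Ehmt2 (G9a) and Ehmt1 (GLP) form a heterodimer that dimethylates H3 lysine 9. Ehmt2 (chromosome 17, 34898463 to 34914073) was at 32.8, 35.1 and 33.8 FPKM in the control and 37.6, 40.8 and 42.2 FPKM in null libraries. Its groups did not overlap, and it rose 1.19-fold (0.24, SE 0.05, limma adjusted p = 0.0186), a call lost without control replicate 1 or 3 or null replicate 2 or 3 (0.0545 to 0.0658). Ehmt1 was at 25.0, 25.1 and 25.1 FPKM in the control and 24.9, 30.1 and 28.0 in null libraries (0.13, interval -0.02 to 0.29, limma adjusted p = 0.186). Without null replicate 1 it passed, with a difference of 0.20 (limma adjusted p = 0.0278). Null replicate 1 was level with the control for Ehmt1 and was the lowest null library for Ehmt2. Whether the changes of Ehmt1 and Ehmt2 differ from each other was not tested.

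The PR-domain genes encode zinc-finger proteins, most of which act as transcription factors and some as methyltransferases. Prdm1 (Blimp1; chromosome 10, 44437174 to 44528558), a repressor needed for primordial germ cells and for the maturation of plasma cells, was at 7.56, 7.61 and 7.74 FPKM in the control and 4.42, 4.74 and 5.53 FPKM in null libraries. The groups were well apart, the control libraries being nearly equal. The mean was 1.56 times as high in the control, and the fall was 0.55 on the log2(FPKM + 1) scale, from 7.64 ± 0.0914 to 4.90 ± 0.570 FPKM (SE 0.08, limma adjusted p = 0.00375).

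The other 5 tested Prdm genes did not pass. Prdm4, a partner of Prmt5, was at 20.7 FPKM in the control and 18.9 in the null libraries (limma adjusted p = 0.0958). Prdm2 (RIZ), an H3 lysine 9 methyltransferase, was at 9.70 and 10.5 FPKM, Prdm10 at 3.91 and 4.16, and Prdm15 at 4.43 and 4.19. Prdm9, which marks the sites of meiotic recombination, stayed below 0.3 FPKM in every library, with a highest value of 0.259.

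For the arginine methyltransferases limma called 0 of 8 loci, and 1 (Prmt6) had an unadjusted p under 0.05. Over all 11480 tested loci 25.2% were called, and 4502 had such a p. Prmt1, which makes most asymmetric dimethylarginine in cells, was at 173, 165 and 159 FPKM in the control and 175, 158 and 162 FPKM in null libraries, which overlapped (limma adjusted p = 0.948). Prmt5, the main enzyme of symmetric dimethylation, was at 83.4 and 87.6 FPKM in the mean (0.249), Prmt7 at 71.5 and 67.8 (0.269) and Prmt3, a cytoplasmic enzyme that methylates a ribosomal protein, at 37.0 and 39.3 (0.23). Prmt6, which methylates H3 arginine 2, was at 17.6, 19.0 and 16.9 FPKM in the control and 20.8, 20.4 and 19.6 in null libraries. Its groups were apart, and it just missed the threshold (0.056), which it passed with median centring (0.0402) and with a minimum mean of 5 FPKM (0.0474). An antisense transcript overlaps 23.45% of the exonic bases of Prmt6, and whether counting used strand is not stated. Prmt10 (Prmt9 in RefSeq) was at 15.3 FPKM in both groups, and Prmt8 at 1.17 and 1.15. The intervals of these 7 genes spanned -0.34 to 0.32.

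In the deposited table the Prmt2 locus does not stand for Prmt2 alone. It joins Prmt2 with Mir678, a microRNA gene of 84 bases (chromosome 10, 76207326 to 76207409) inside a Prmt2 exon. Its values were 3.64, 1093.4 and 4.76 FPKM in the control and 4.54, 1011.3 and 4.29 in null libraries. Replicate 2 of each group alone was high, and the highest library was 300.4 times the lowest. The 95% interval ran from -6.19 to 6.20 (limma adjusted p = 0.999). Of 68 loci in the table that join a microRNA with another gene, 50 were at 1 FPKM or more in every library, and 5 of these had a highest library over 20 times the lowest.

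Among the 7 Kat acetyltransferases limma called 0, and 0 had an unadjusted p under 0.05, against 25.2% called and 4502 with such a p among all 11480 loci. Their intervals lay between -0.22 and 0.29. Kat6b (MORF) was at 44.4, 46.4 and 45.6 FPKM in the control and 46.9, 42.1 and 40.1 in null libraries, which overlapped (limma adjusted p = 0.372), and its paralog Kat6a (MOZ) was at 22.5 and 21.5 in the mean (0.306). The SAGA-type enzymes Kat2a (GCN5) and Kat2b (PCAF) were at 43.3 and 42.5 FPKM in the control and 44.7 and 43.1 in null libraries. Kat5 (TIP60), of the TIP60-p400 complex, was at 29.2 FPKM in both groups. The H4 lysine 16 acetyltransferase Kat8 (MOF) was at 17.4 and 18.7 FPKM (0.40), and Kat7 (HBO1), which acts on H3 lysine 14, at 42.3 and 44.2 (0.256).

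Summed over its members, each family's FPKM differed between the groups by a ratio of 0.977 to 1.17. The Hdac sum was 366 ± 5.70 FPKM in the control and 413 ± 3.38 in the null libraries, a ratio of 1.13, with no overlap. Hdac1 made up 42.0% of it, and the sum without Hdac1 was also higher, at 211 to 216 FPKM in the control and 236 to 242 in null libraries. The Sirt sum was 105 ± 2.15 and 122 ± 1.63 FPKM, a ratio of 1.17. Sirt1 made up 65.6% of it, and the other 6 sirtuins together were at 37.6 to 44.0 FPKM in the control and 34.8 to 37.9 in null libraries, which overlapped.

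The Ehmt sum was 59.0 ± 1.2 FPKM in the control and 67.9 ± 4.66 in null libraries (ratio 1.15), and the Setd sum 207 ± 4.10 and 219.6 ± 3.67 (1.06), both with no overlap. The Kdm sum was 522 ± 1.67 and 533 ± 9.07 FPKM (1.02), also apart, yet without Kdm3a it was 425 to 428 FPKM in the control and lower, at 408 to 417, in null libraries. The sums overlapped for Prmt without the Prmt2 locus (392 ± 11.9 and 397 ± 3.54 FPKM), Kat (243 ± 3.85 and 245 ± 4.98) and Prdm (68.7 ± 0.814 and 67.1 ± 5.55). These sums are descriptions and carry no test.

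**Figure D4:**
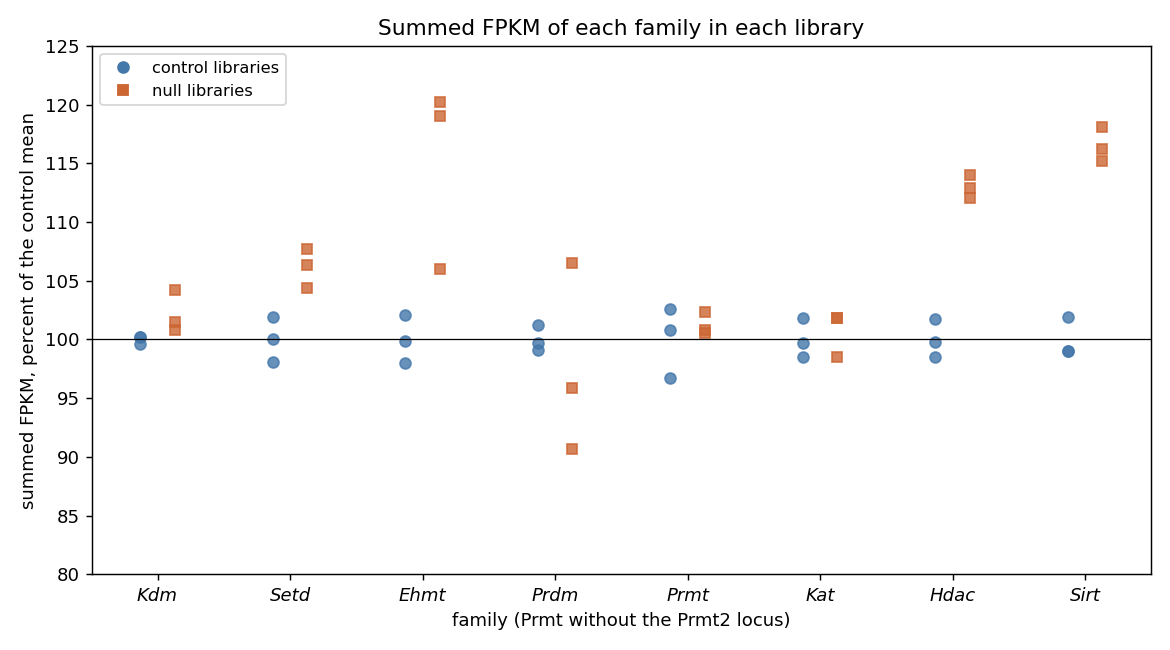
Summed FPKM of each family in each library as a percent of the family's control mean, on an axis that starts at 80; circles are control and squares null libraries. The null libraries lie above the control libraries for Kdm, Setd, Ehmt, Hdac and Sirt, and overlap them for Prdm, Prmt and Kat.

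Other genes, taken from lists of enzymes outside the naming rule and of complex partners, were tested in the same fit. They are called other histone-modification genes here, although some, such as the cohesin acetyltransferase Esco2, act on other proteins. Of 150, limma called 20 higher and 11 lower (20.7%, against 25.2% of all tested loci), with a median difference of 0.02. The counts of the lists below stand against 12.8% of all tested loci called higher and 12.4% called lower. In the 5 KMT2 genes, which carry older symbols in the table, limma called 0, and 1 (Mll5) had an unadjusted p under 0.05. Mll1 (Kmt2a) was at 5.63 FPKM in the control and 5.10 in null libraries, Mll2 (Kmt2d) at 4.11 and 3.58, Mll3 (Kmt2c) at 13.8 and 15.1, Mll5 (Kmt2e) at 4.54 and 3.88, and Wbp7 (Kmt2b) at 15.2 and 14.1. These are H3 lysine 4 methyltransferases, apart from Mll5, for which such activity is in doubt. Of their 14 partner subunits and those of the SET1 complexes, Ncoa6 rose from 9.55 ± 0.368 to 14.8 ± 1.17 FPKM (limma adjusted p = 0.0017) and Rbbp5 fell by 0.16 on the log2 scale, from a control mean of 22.5 ± 0.406 (0.0284). The shared subunit Ash2l was at 336 and 343 FPKM (0.50).

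Of 20 other methyltransferases tested, 6 rose and 1 fell, against 12.8% and 12.4% of all tested loci. The list is of lysine methyltransferases, apart from the arginine methyltransferase Carm1, which did not pass (limma adjusted p = 0.318). Smyd1, a muscle enzyme, rose from 0.862 ± 0.0797 to 2.71 ± 0.190 FPKM (limma adjusted p = 0.000796), Setdb1, an H3 lysine 9 methyltransferase, from 36.6 ± 0.850 to 47.0 ± 1.97 (0.00228), and Smyd2 from 17.2 to 21.1 (0.0127). Nsd1, an H3 lysine 36 methyltransferase and the most abundant of the list, rose from 79.3 to 92.7 FPKM (0.00717), and its paralog Whsc1 (Nsd2 in RefSeq) fell from 6.69 to 5.48 (0.039). Of 13 other JmjC and related genes, Uty, the Y-linked paralog of Kdm6a, rose from 14.1 to 20.7 FPKM (0.00171) and Jmjd1c from 36.1 to 43.4 (0.00409), and 0 fell. Jarid2, a partner of Polycomb repressive complex 2, was at 133 and 140.3 FPKM (0.31).

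Acetyltransferases outside the Kat symbols rose in 3 of 15 cases and fell in 0, against 12.8% and 12.4% of all tested loci. Hat1, which acetylates newly made histone H4, rose from 261 to 314 FPKM (limma adjusted p = 0.00935), the coactivator Ncoa3 from 52.7 to 69.5 (0.00118), and the cohesin acetyltransferase Esco2 from 81.3 to 106 (0.00133). Among 51 subunits of acetyltransferase complexes 4 rose and 3 fell. Phf15 (Jade2 in RefSeq), of the HBO1 complex, rose from 3.92 ± 0.309 to 8.63 ± 2.29 FPKM (0.0074), and Eny2 and Brpf3 from 13.9 to 17.2 (0.00918) and from 10.5 to 12.1 (0.0459). Usp22, the deubiquitinase of the SAGA complex, fell from 46.7 to 37.7 FPKM (0.00399), and Morf4l2, the most abundant of the list, from 260.2 to 236 (0.0148).

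Among 34 subunits of the deacetylase corepressor complexes 4 rose and 6 fell, against 12.8% and 12.4% of all tested loci. The histone-binding subunit Rbbp7 rose from 124 ± 2.73 to 161 ± 4.36 FPKM (limma adjusted p = 0.000948), and Sap18, the most abundant, from 160.2 to 176 (0.0322). Chd3, a remodeller subunit of NuRD, fell from 3.58 to 2.15 FPKM (0.00405), and Gps2, of the NCoR complex, from 23.3 to 18.1 (0.0115).

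Some other features of the libraries moved with the groups. Of 941 tested loci on chromosome 11, 57 were higher and 260 lower in null libraries (33.7% called), with a median of -0.12. Among all 11480 tested loci 12.8% were higher and 12.4% lower (25.2% called), and the counts below stand against these shares. The 5 members there, Kdm6b, Kat7, Kat2a, Hdac5 and Sirt7, had a median of 0.04, with 0 called by limma and 0 at an unadjusted p under 0.05. Of the genes of the lists above that lie on chromosome 11, Chd3, Gps2 and Usp22 fell and Phf15 rose. The others there, Smyd4, Ezh1, Jmjd6, Jmjd4, Bod1, Ncor1, Tada2a, Atxn7l3, Msl1 and Kansl1, did not pass. Markers of the 2-cell-like state, a rare state of ES cell cultures, rose in 6 of 7 tested genes and summed to 40.9 to 46.7 FPKM in the control and 84.7 to 115 in null libraries. Trophectoderm markers (6 genes) summed to 19.8 to 20.3 and 29.7 to 33.1 FPKM. Most of this sum was Tfap2c, which rose from 18.0 to 25.7 FPKM (limma adjusted p = 0.00338), and Eomes rose from 1.37 to 4.25 (0.0017). Cdx2, Gata3, Elf5 and Krt7 stayed below 1 FPKM in every library, overlapped between the groups and were not tested. Endoderm markers (6 genes) summed to 3.08 to 4.13 and 2.42 to 3.23 FPKM. Of the ES cell markers Esrrb and Zfp42 fell and 0 of 8 rose. Of the fibroblast feeder markers Acta2 fell and Thy1 rose. The part of chromosome 11 and of these markers in the differences of the enzymes was not tested. In a fit without the loci of chromosomes 11 and Y, 13 members and 23.9% of loci passed. That fit leaves the values of all other loci as they were, so it cannot show such a part.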

How the data were processed

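RNA sequencing libraries of 3 control and 3 null samples were used. The authors deposited 1 table per library, with 1 value per locus, a symbol and RefSeq accessions. The values were taken as FPKM made by the authors: no label or header states the unit, but the values are not whole numbers and their totals differ between libraries. The submitters' processing notes name TopHat, Trim Galore, FastQC and Cuffdiff and the build mm10, and their versions and roles, and any use of strand, are not stated in the sources at hand.

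Limma 3.58.1 in R 4.3.3 (eBayes with a mean-variance trend, no covariate) was fitted to log2(FPKM + 1) over the 11480 loci averaging 1 FPKM or more, with Benjamini-Hochberg adjustment over all of them at 0.05. This scale understates changes of low genes, and ratios of means carry no pseudocount. The fit was tested on simulated data. Depth was estimated from low values: 88.5% of 3024 values below 0.15 FPKM were whole multiples of 1 step within 1%. Exon overlaps come from GENCODE M21 and promoters from RefSeq.

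The members and gene lists were chosen with earlier results of these data known. The 5 KMT2 genes were added after symbols, not values, were seen. Every member past the threshold is named, with per-library values for these, for the most abundant of each family and for the largest differences; of each other list, the 4 largest changes and the most abundant gene are named. A few genes that the rule names are not reported here. Members that complete a family were also named, some after their values were seen. Alternatives changed the pseudocount, minimum, scaling, variance model, replicate block, chromosomes and each library in turn.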

Additional observations from a re-analysis of the deposited data

How the results depend on the processing

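The 14 changed members became 11 without a minimum FPKM, 16 with median centring and 12 or 13 in the other alternatives that kept all 6 libraries. Of members called in the main fit or in an alternative, 0 reversed. Some uncalled members with differences near 0 changed sign, such as Hdac10, at -0.01 and at 0.09 without control replicate 1. The 5 lower members became 3 without a minimum FPKM and 3 with a minimum mean of 5 FPKM. Leaving out 1 library gave 5 to 13 changed members, 3 to 10 higher and 1 to 4 lower, and 1719 to 2914 changed loci overall against 2894, of which 1776 were without control replicate 1 and 1719 without control replicate 2. The other histone-modification genes gave 19 to 28 changed against 31. With replicate number as a block, 12 members (8 higher, 4 lower), 2264 loci and 22 other genes changed, Hdac4 and Kdm8 losing their calls, and the Zscan10 difference was -2.85. The deviations of same-numbered libraries correlated at -0.00242, 0.108 and 0.0527, not all above 0.1, and the numbers were not taken to pair samples, although replicate 2 was the deepest library of both groups (1.089 and 1.093 times control replicate 1) and alone high at the Prmt2 locus. About 22.6 fragments stood behind 1 FPKM of a 3-kb transcript.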
